A study of Mus musculus with 3 samples.

Results

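The comparison described here sets embryoid bodies with the RQ variant of human BRCA1 against embryoid bodies with wild-type human BRCA1 (WT), gene by gene, as the log2 signal on the RQ array minus that on the WT array. The bodies were made from mouse embryonic stem cells of strain 129S7/SvEv Brd-Hprt b-m2 and collected on day 7, and total RNA was hybridized to Affymetrix mouse expression arrays. Another array, also from day 7 and the same strain, read bodies with the M1652I variant (MI). Feeder cells had been removed on gelatin before the bodies were formed in suspension. The RQ substitution is R1699Q in the series design, whereas the label of that array gives R1669Q, and the sources used here do not settle which is right. All 3 genotypes thus carried a human BRCA1 gene in mouse cells, and how it was introduced, and how many stem cell lines stood behind each genotype, are points the labels leave out.

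A gene with several probe sets was read at its brightest probe set, by the mean of all 3 arrays, which gave 18193 genes, the same number as for the series as a whole. Of these, 12226 were described further because the higher of their WT and RQ signals reached the median of all probe sets (log2 6.31, the level filter), and 5967 were not. Each genotype was measured on 1 array, so differences have no replicate check and no test, and their precision is limited by this number of arrays. Some probe sets are named as matching several transcripts. They are called shared probe sets here, and named genes that are not past 2-fold without them are pointed out. A gene with shared probe sets alone has no such reading, and such genes are not all pointed out. A gene is called higher or lower past 2-fold at a log2 difference of at least 1 in either direction, and every difference below is RQ minus WT on the log2 scale unless a fold is named. The MI comparison shares the WT array, so MI signals are set beside the others only as a further value. In bulk RNA, fewer cells of a type and less RNA per cell cannot be told apart.

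BRCA1 is a tumour suppressor that works in the repair of DNA breaks by homologous recombination, and arginine-to-glutamine changes in its BRCT repeats are studied because those repeats bind phosphorylated partner proteins. Embryoid bodies are aggregates of embryonic stem cells that leave the pluripotent state in suspension culture. Their outer layer becomes extraembryonic endoderm, whose visceral form takes up nutrients through a megalin and cubilin receptor complex and whose parietal form lays down a thick basement membrane, while the inner cells resemble epiblast and later form germ layer derivatives. Stem cells that have not left the naive state keep a characteristic set of transcription factors.

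The labelled material was checked against markers. Pou5f1, the pluripotency factor OCT4, read 11.39 (WT), 10.21 (MI) and 11.25 (RQ). All 6 naive stem cell markers were above the level filter, and the log2 of their summed signal was 11.93 (WT), 12.50 (MI) and 13.48 (RQ). For the 6 parietal endoderm markers, 5 of them above the filter, it was 13.34, 10.40 and 10.07, and for the 7 markers of visceral endoderm and yolk sac, 6 of them above the filter, it was 11.29, 9.30 and 9.11. A sum follows its brightest genes. The median difference was 1.67 for the naive markers and -3.15 for the parietal ones. For visceral endoderm and yolk sac it was only -0.14, with a range from -4.58 to 0.07. The endoderm label rests on receptor and matrix genes, because the transcription factor gene Gata4 lay below the filter on each array (6.18 in WT, 6.12 in MI, 5.95 in RQ) and the yolk sac secretory genes Afp, Ttr and Apoa1 read 7.10, 6.54 and 6.23 in WT and 6.96, 6.41 and 6.27 in RQ. Fibroblast and feeder markers, 4 of 6 above the filter, summed to 9.37 in WT and 9.22 in RQ but 11.62 in MI, and streak, blood, endothelium, neural, heart and trophoblast markers summed to between 6.92 and 8.54 in WT and RQ. The 18 hybridization spike probe sets, which read RNA added to every sample, were lower on the RQ array by a median of -0.64 (-1.38 to -0.42), with 3 of them past 2-fold. Their part in the gene differences was not tested. Brca1 probe sets read the mouse gene, and the chosen one read 6.81, 6.96 and 6.80 in WT, MI and RQ, so they do not check the genotypes.

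Most genes read alike on the RQ and WT arrays. The median difference over the 12226 genes was 0.01, the quartiles were -0.12 and 0.18, and 88.8% of genes lay within 1.5-fold. At least 2-fold higher in RQ were 205 genes (1.68%), at least 2-fold lower were 182 genes (1.49%), and 51.7% of genes were above 0. The counts were similar in both directions, but the large differences were not: 41 genes were at least 4-fold lower and 8 at least 4-fold higher, and past 8-fold there were 10 lower and 2 higher genes, the latter being Manba and Dppa2. The lower genes had a median signal of 9.24 in WT, and 57.1% of them read 9 or more there, against 10.6% of all genes above the filter. The higher genes had a median of 7.38 in WT and 8.67 in RQ, and 9.27% of them read 9 or more in WT. Both groups were picked by these same signals, and a 2-fold lower value can be read only from a signal well above background. Part of this contrast thus follows from the selection. Signals of different probe sets also depend on their probes. In RQ, 32 of the lower genes were under the level filter, and in WT 14 of the higher genes were. Differences of these genes can understate the true ratio on both sides. At the 2-fold limit itself stood Nasp, Rpa1 and Slain2 (1.01 each) just inside and Tubb4b (0.9988) just outside on the higher side, and Map1lc3b (-1.004) just inside and P4ha2 (-0.9986) just outside on the lower side. The shares of 1.68% and 1.49% are the background for the list counts below. A short list with no gene past 2-fold is thus near that background.

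**Figure D1:**
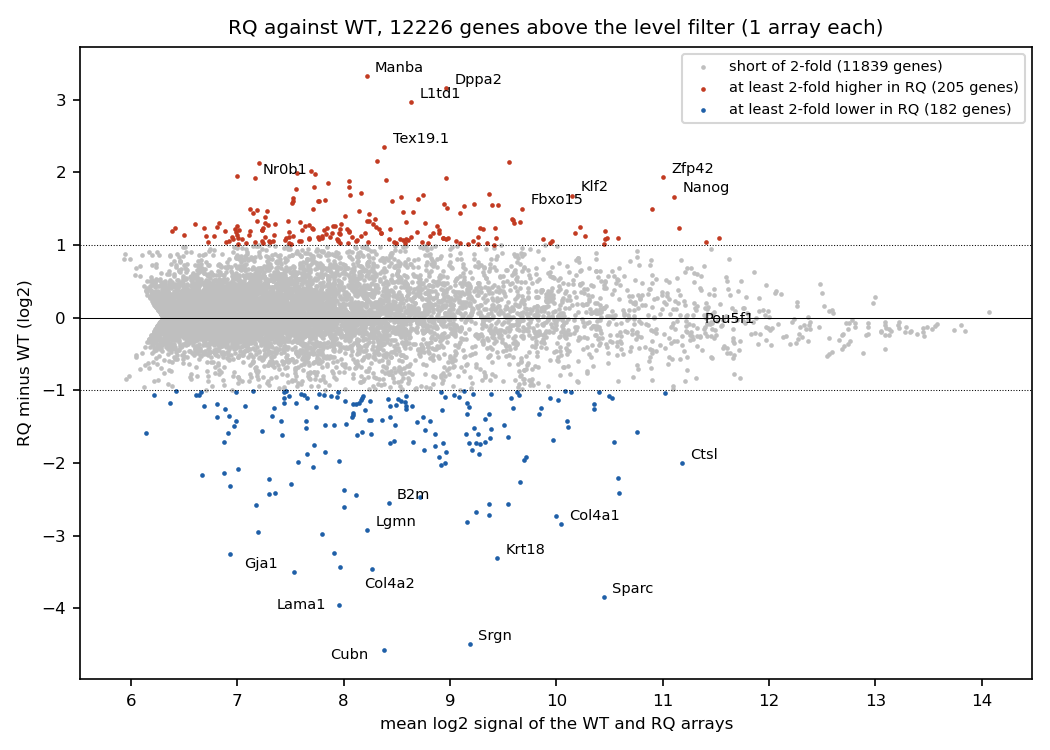
Each point is 1 gene above the level filter, with the mean log2 signal of the WT and RQ arrays on the horizontal axis and RQ minus WT (log2) on the vertical axis, and the dotted lines mark 2-fold. The 182 lower genes reach -4.58 (Cubn) and the 205 higher genes reach 3.33 (Manba), with Pou5f1 near 0.

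The endocytic receptor complex of the visceral endoderm was lower in RQ at each of its receptors. Cubn, which encodes cubilin, the receptor that binds vitamin-carrier and lipoprotein cargo, read 10.67 (WT), 6.08 (MI) and 6.09 (RQ), a difference of -4.58 that was the lowest of all genes above the filter. Lrp2, which encodes megalin, the large membrane receptor that internalizes cubilin, read 8.47, 6.10 and 5.88 (-2.59), and Amn, which encodes amnionless, the membrane anchor of cubilin, read 6.94, 5.47 and 5.35 (-1.59). All 3 were above the filter in WT alone. Among the adaptors and partners, Dab2, the clathrin adaptor of megalin, read 9.69, 6.82 and 6.25 (-3.44), and Lrpap1, the chaperone that keeps such receptors from binding ligand too early, read 10.10, 8.21 and 8.38 (-1.72). Of the 9 genes of the list above the filter, 5 were 2-fold lower and none higher, with a median of -1.59 against 0.01 over all genes. The median was -0.24 over the 5 genes with both arrays above the filter, a setting that removes the receptors, and -1.02 without any filter. Dab2 was at -0.64 without shared probe sets, and its 4 probe sets ranged from -3.44 to -0.64.

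The basement membrane genes that parietal endoderm makes in quantity were lower too. Of the 3 laminin chains that together form laminin-111, Lama1 (the alpha chain) read 9.93 (WT), 6.11 (MI) and 5.98 (RQ), Lamb1 (beta) read 10.65, 8.03 and 8.08, and Lamc1 (gamma) read 9.89, 7.30 and 8.04. Their differences were -3.95, -2.57 and -1.84, whereas Lama5, an alpha chain of other laminins, differed by -0.67. The network-forming collagen IV chains Col4a1 and Col4a2 read 11.46 and 10.001 in WT, 8.68 and 6.70 in MI, and 8.62 and 6.54 in RQ (-2.84 and -3.46), while Col4a6 differed by -0.14. These 2 collagen genes lie head to head: in the RefSeq annotation of GRCm38.p6 their start sites are at positions 11312826 (Col4a1, minus strand) and 11312805 (Col4a2, plus strand) of chromosome 8, and their 300-base promoter windows share the 78 bases chr8:11312777-11312854.

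Other matrix components were mixed. Sparc, a collagen-binding matrix protein, read 12.37 (WT), 9.16 (MI) and 8.52 (RQ) (-3.85), Tinagl1, a basement membrane glycoprotein, read 9.34, 7.89 and 6.90 (-2.45), and Hspg2, which encodes perlecan, read 8.41, 7.09 and 6.88 (-1.52). The linker proteins that join laminin and collagen IV networks were closer to WT, since Nid1 read 9.001, 8.80 and 8.06 (-0.94) and Nid2 read 9.73, 8.13 and 9.56 (-0.17). Fn1, which encodes fibronectin, read 10.70, 10.30 and 10.50. Of the 18 genes of the list above the filter, 8 were 2-fold lower and none higher, 17 were below 0, and the median was -0.89. With probe sets averaged by gene the median was -0.57 and over all 23 genes on the array, without the level filter, it was -0.41.

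Enzymes and chaperones that fold collagen followed the same direction with smaller differences. Serpinh1, which encodes HSP47, the collagen-specific chaperone of the endoplasmic reticulum, read 10.73 (WT), 8.74 (MI) and 8.01 (RQ) (-2.72). P4ha1, a catalytic subunit of collagen prolyl hydroxylase, read 9.98, 8.54 and 8.47 (-1.52). Fkbp9, a prolyl isomerase, read 10.03, 8.62 and 8.70 (-1.33), and the lysyl hydroxylase Plod2 read 11.08, 8.65 and 9.98 (-1.10). These 4 of 16 genes were 2-fold lower, none was higher, 14 were below 0, and the median was -0.66. Plod2 was short of 2-fold with the mean of its probe sets (-0.88), and Fkbp9 without shared probe sets (-0.93). Receptors for the same matrix stood apart from it: of 13 integrins, syndecans and other receptors above the filter, the heparan sulfate proteoglycan Sdc4 alone was past 2-fold (-1.08, with -0.74 for the mean of its probe sets and -0.40 at the unshared one, which read 6.32 in WT), Dag1, which encodes dystroglycan, read 8.62 in WT and 9.35 in RQ (0.73), and the median was -0.07.

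Genes of simple epithelium were divided. The keratin pair of early epithelia was lower, with Krt8 at 9.28 (WT), 6.72 (MI) and 6.302 (RQ) (-2.98) and Krt18 at 11.10, 7.85 and 7.79 (-3.31), and Krt19 read 6.93, 6.22 and 5.92 (-1.01). Gja1, the gap junction protein connexin 43, read 9.29, 7.25 and 5.78 (-3.51), and Car4, a membrane-anchored carbonic anhydrase, read 9.53, 6.19 and 6.29 (-3.24). The tight junction genes Cldn6, Cldn4 and Cldn7 read 8.74, 8.94 and 8.36 in WT and 6.68, 7.32 and 6.93 in RQ (-2.06, -1.62 and -1.42). Other junction genes differed less: Cdh1, which encodes E-cadherin, read 10.01 (WT), 9.24 (MI) and 10.08 (RQ), and Tjp1, which encodes the scaffold ZO-1, read 8.57, 8.27 and 9.43 (0.86). Jup, of the same class, read 8.86, 8.19 and 8.18 (-0.68). Of the 17 junction genes above the filter, 9 were above 0 and 8 below. Epcam, from the surface protein class, read 10.18, 8.21 and 9.31 (-0.86). In all, 8 of 29 genes were 2-fold lower, none was higher, and the median of -0.10 was near that of all genes, although it was -0.43 with the filter at the 75th percentile.

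Of 11 endodermal transcription factors above the filter, none was past 2-fold in either direction at the chosen probe set, and the median was 0.04. Gata6, which drives primitive endoderm, read 7.04 (WT), 7.08 (MI) and 6.94 (RQ), and Sox17 read 7.05, 7.06 and 6.79, all within 1 log2 unit of the filter, where little of a difference could be read. The other probe set of Sox17 differed by -1.43, and the mean of both by -0.84. The lowest of the list was Klf6, a Krüppel-like factor, at 8.64 in WT, 7.87 in MI and 7.82 in RQ (-0.82). With the mean of its probe sets Klf6 was at -0.26, and without shared ones at -0.12. Among genes of yolk sac secretion, 2 of 14 were 2-fold lower and the median was -0.15: Apoe, the lipid carrier apolipoprotein E, read 10.58, 6.94 and 7.91 (-2.67), and Apoc1, a smaller apolipoprotein, read 8.94, 6.74 and 6.97 (-1.97). The lipid-loading protein Mttp, which assembles apolipoprotein B particles, differed by -0.92.

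Lysosomal proteases were lower, with a lower median than the other lysosomal classes. The protease class had 12 genes above the filter, among them Ifi30, which is a thiol reductase and not a protease. Of these 12 genes, 8 were 2-fold lower, 11 were below 0, and the median was -1.74. Lgmn, the asparaginyl protease legumain, read 9.68 (WT), 6.70 (MI) and 6.76 (RQ) (-2.92), and Ctsa, the protective protein cathepsin A, read 9.95, 7.70 and 7.48 (-2.47). Ctsh, an aminopeptidase cathepsin, read 8.64, 6.43 and 6.36 (-2.29), and Ctsl, a broad endoprotease, read 12.18, 11.20 and 10.17 (-2.01). Ifi30, the thiol reductase of the lysosome, read 11.36, 8.21 and 8.63 (-2.73). Ctsc (-1.75), Ctsz (-1.73) and Ctsb (-1.42) completed the lower cathepsins. With the mean of their probe sets Ctsc was at -0.59 and Ctsb at -0.68, and the unshared probe set of Ctsl, which read 6.85 in WT and 6.79 in RQ, was at -0.06. The other probe sets of Ctsc (5.60 and 5.62 in WT) and some of Ctsb (5.93 and 5.89) were under the filter in WT and RQ and give no reading.

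The other lysosomal classes were less alike. Among 13 hydrolases, Hexa, a subunit of beta-hexosaminidase, read 10.19 in WT and 8.47 in RQ (-1.71), and Manba, which encodes beta-mannosidase, read 6.55 (WT), 6.57 (MI) and 9.88 (RQ), the highest difference of all genes above the filter (3.33, 1 probe set). Their median was -0.11. Among 13 membrane and activator proteins, Lamp2, a major membrane glycoprotein of the lysosome, differed by -1.10 and Psap, the precursor of the saposin activators, by -1.03 (-0.81 with the mean of its probe sets), with a median of -0.68. Over all 38 lysosomal genes, 11 were 2-fold lower, 1 was higher, 32 were below 0, and the median was -0.71.

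**Figure D2:**
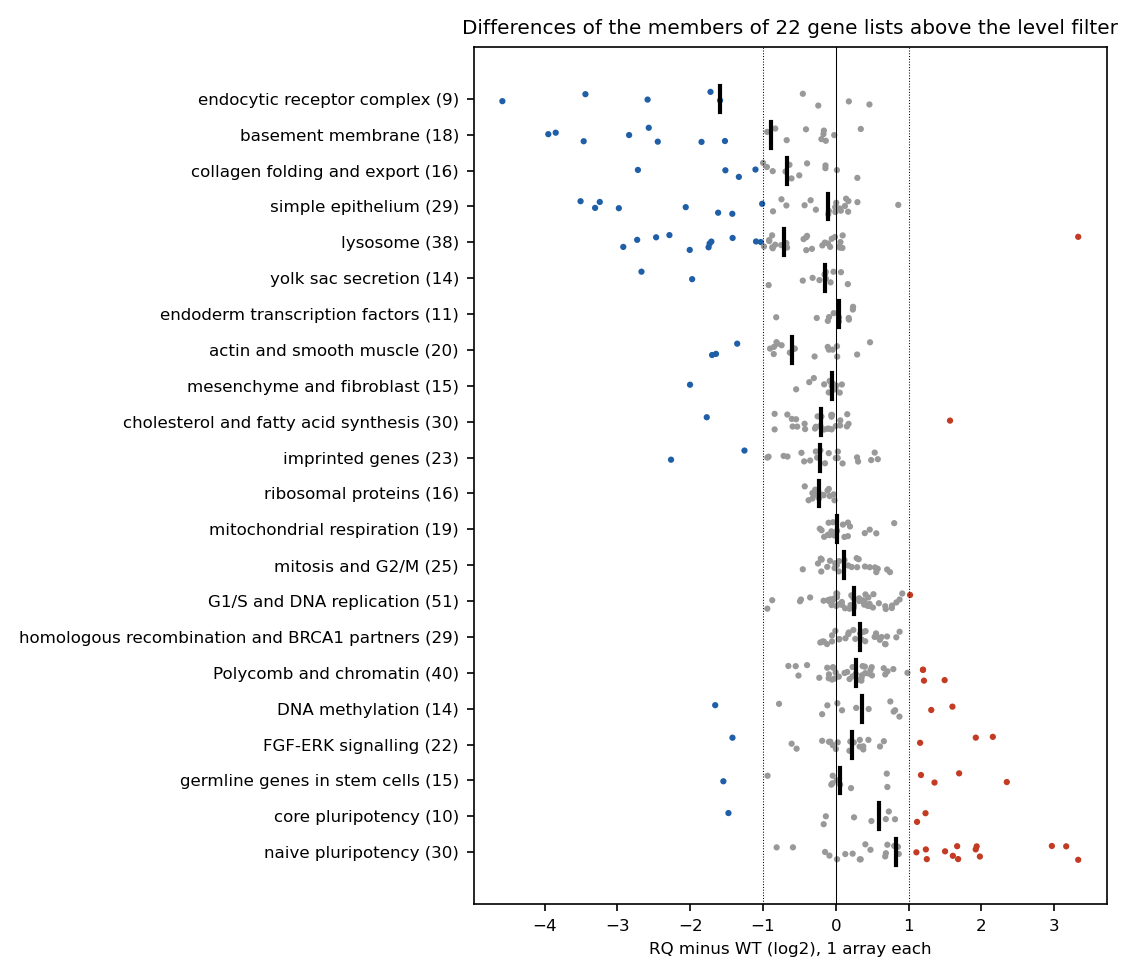
Each point is a list member above the level filter, placed by RQ minus WT (log2, 1 array each), with the number of such members after each list's name, the list median as a vertical bar, and blue and red for members past 2-fold (dotted lines). Medians run from -1.59 for the endocytic receptor complex to 0.83 for naive pluripotency, and those of ribosomal and mitochondrial genes lie at -0.23 and 0.02.

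Naive pluripotency genes were higher in RQ. Nanog, a homeodomain factor that holds stem cells in self-renewal, read 10.27 (WT), 11.41 (MI) and 11.94 (RQ) (1.67). Zfp42, a zinc finger gene used as a marker of the naive state, read 10.04, 10.67 and 11.97 (1.94), and Nr0b1, a nuclear receptor of stem cells, read 6.20, 6.17 and 8.12 (1.92), above the filter in RQ alone. Both Nanog and Zfp42 thus read highest in RQ and lowest in WT, whereas Nr0b1 was under the filter in both WT and MI.

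The Krüppel-like factors and their companions gave further examples. Klf2 read 9.31 (WT), 8.75 (MI) and 10.99 (RQ) (1.68), and Klf4 read 8.81, 9.91 and 10.05 (1.24), so that Klf4 was high in both variants and Klf2 in RQ alone. Klf5 read 10.26, 10.02 and 10.67, short of 2-fold. Prdm14, which represses differentiation genes, read 6.19, 6.52 and 7.44 (1.25), and Tbx3, a T-box factor, read 6.96, 7.78 and 8.56 (1.61, and 0.86 with the mean of its probe sets). Nr5a2, an orphan nuclear receptor, differed by 1.11, and by 0.63 with that mean. Esrrb and Tfcp2l1, factors at the centre of the naive network, read 8.99 and 8.63 in WT and 9.33 and 8.96 in RQ. Stat3, which carries the LIF signal, was the one factor below 0 (9.27 in WT and 8.46 in RQ).

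Other naive genes included the largest differences. Dppa2, a chromatin-binding protein of pluripotent cells, read 7.38 (WT), 9.02 (MI) and 10.55 (RQ) (3.17), and both of its probe sets were past 2-fold (2.53 and 3.17). L1td1, an RNA-binding protein derived from a transposon, read 7.15, 8.20 and 10.12 (2.97), and Fbxo15, an F-box gene known as an OCT4 target, read 8.93, 10.24 and 10.43 (1.501). Dppa4, the partner of Dppa2, read 8.68, 8.34 and 9.36, and Dppa3 read 7.88, 9.74 and 8.59. Of 30 naive genes above the filter, 13 were 2-fold higher and none lower, 26 were above 0, and the median was 0.83. Manba and Jam2 had been put on this list with their values known, and without them 11 of 28 genes were higher and the median was 0.76. The rest of the list was also chosen with earlier results of these data known, so it is not an independent set.

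The core factors shared by naive and primed cells were not uniform. Sox2, the partner of OCT4, read 10.54 (WT), 10.32 (MI) and 11.77 (RQ) (1.23), while Pou5f1 differed by -0.14. Mycn differed by 1.12 at the chosen probe set, but another of its probe sets differed by -0.24 and the mean was 0.37. Lin28a, which blocks maturation of let-7 microRNAs, read 10.24, 7.44 and 8.77 (-1.47, and -0.99 with the mean of its probe sets). Of 10 core genes, 2 were higher and 1 lower, with a median of 0.59. Formative and epiblast genes had 1 higher gene of 11, Nodal, and a median of 0.18, with Otx2, a factor of the primed state, at 7.35 (WT), 5.98 (MI) and 7.52 (RQ).

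**Figure D3:**
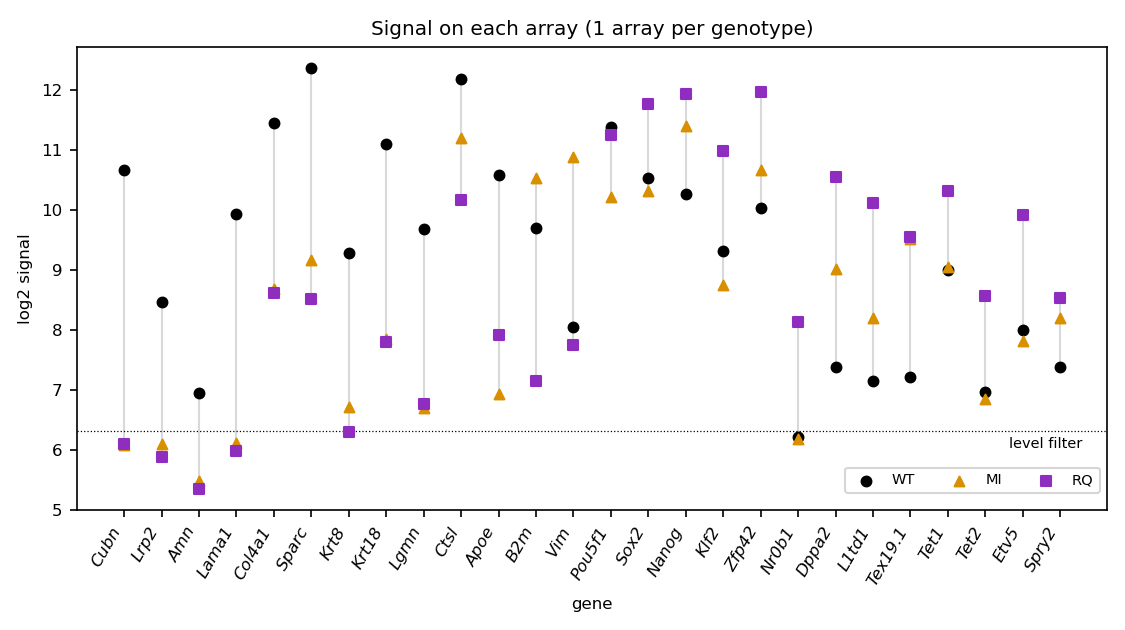
The log2 signal of 26 genes on the WT (circle), MI (triangle) and RQ (square) arrays is plotted on the vertical axis, 1 array per genotype, with the level filter as a dotted line. Cubn, Lrp2, Amn, Lama1, Col4a1 and Krt18 read alike in MI and RQ and high in WT, B2m and Vim are high in MI, and Nanog, Zfp42, Dppa2, L1td1 and Etv5 are highest in RQ.

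The promoters of 3 of these factors hold the letters TTTGCAT, the core of the octamer that OCT4 and related POU proteins recognise, on one strand or the other. They are shown because Nanog, Zfp42 and Sox2 read higher in RQ while Pou5f1, which encodes OCT4, differed by -0.14. The sequences are the 250 bases before the start site from RefSeq (GRCm38.p6), 5′ to 3′ on the gene's strand, with the octamer core in capitals (as ATGCAAA where it lies on the other strand); its first printed base is 151 bases before the start in Nanog, 185 in Zfp42 and 99 in Sox2. Nanog is at chr6:122707315-122707564 (plus strand), Zfp42 at chr8:43307010-43307259 (minus strand) and Sox2 at chr3:34649745-34649994 (plus strand).
Nanog: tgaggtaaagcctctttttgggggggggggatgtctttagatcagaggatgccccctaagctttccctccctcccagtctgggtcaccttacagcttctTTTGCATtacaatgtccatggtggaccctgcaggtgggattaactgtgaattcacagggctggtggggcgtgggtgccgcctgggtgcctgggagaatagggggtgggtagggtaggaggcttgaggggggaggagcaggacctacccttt
Zfp42: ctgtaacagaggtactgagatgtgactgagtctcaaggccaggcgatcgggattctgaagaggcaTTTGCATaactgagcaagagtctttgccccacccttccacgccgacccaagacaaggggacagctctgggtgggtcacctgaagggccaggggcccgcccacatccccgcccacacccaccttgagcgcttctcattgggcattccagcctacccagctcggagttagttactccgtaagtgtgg
Sox2: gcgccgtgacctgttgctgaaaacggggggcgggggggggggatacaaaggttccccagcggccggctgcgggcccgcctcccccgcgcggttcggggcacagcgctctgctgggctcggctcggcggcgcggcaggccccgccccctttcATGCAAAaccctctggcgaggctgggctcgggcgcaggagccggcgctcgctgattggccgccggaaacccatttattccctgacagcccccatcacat

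Promoter letters were then counted over all genes past 2-fold. RefSeq promoter windows of 300 bases (250 before and 50 after the start) were found for 168 of the 205 higher genes, 151 of the 182 lower genes and 9834 of the 12226 genes above the filter, which gave 221, 201 and 12528 windows. The octamer core TTTGCAT, on either strand, was in 4.98% of windows of higher genes, 1.99% of lower genes and 3.46% of all genes above the filter, and in 4.63% of all 32851 windows of the table. The TATA box letters TATAAA were in 6.79% of higher, 14.4% of lower and 8.07% of all windows above the filter (13.6% of the table), and the CCAAT box letters CCAAT in 42.1%, 38.8% and 37.8% (37.4%). The letters AGATAA, read by GATA factors, were in 3.62%, 4.98% and 6.91% (11.2%), the GC box GGGCGG in 63.8%, 61.2% and 58.7% (35.7%), and the E-box TCACGTGA, read by the lysosomal regulator TFEB, in 1.81%, 2.49% and 1.64% (0.974%). Each was searched on both strands and counted by itself, so a window can hold several. The median GC content was 63.3% for higher genes, 59.3% for lower genes and 60% for all, and the median ratio of observed to expected CpG was 0.80, 0.59 and 0.72. Lower genes thus had more TATA letters and fewer CpG than higher genes, with no test of either.

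Promoters with TATA letters came from both directions, and the distance of these letters from the start differed. They are shown for Nr0b1, 1.92 higher, and for Srgn, the proteoglycan serglycin of secretory granules, which read 11.43 (WT), 6.69 (MI) and 6.94 (RQ) (-4.49). The capitals mark TATAAA, whose first base is 32 bases before the start in Nr0b1 (chrX:86191525-86191774, plus strand) and 98 before it in Srgn (chr10:62527446-62527695, minus strand), again from RefSeq GRCm38.p6.
Nr0b1: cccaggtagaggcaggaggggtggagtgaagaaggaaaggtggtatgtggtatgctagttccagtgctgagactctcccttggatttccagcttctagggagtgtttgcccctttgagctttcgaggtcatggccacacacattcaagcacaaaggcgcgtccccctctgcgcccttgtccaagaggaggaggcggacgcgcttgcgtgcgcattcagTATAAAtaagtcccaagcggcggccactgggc
Srgn: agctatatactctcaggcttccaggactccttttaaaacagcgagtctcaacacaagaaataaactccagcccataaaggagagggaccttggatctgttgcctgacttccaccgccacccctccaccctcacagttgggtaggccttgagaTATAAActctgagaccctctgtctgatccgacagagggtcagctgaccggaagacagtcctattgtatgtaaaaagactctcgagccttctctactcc

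Germline genes that naive stem cells also transcribe were partly higher. Tex19.1, which protects germ cells and placenta against transposons, read 7.21 (WT), 9.51 (MI) and 9.56 (RQ) (2.35), high in both variants. Stra8, the retinoic acid-induced gene of meiotic entry, read 7.21, 7.70 and 8.91 (1.69), and Dazl, an RNA-binding protein of germ cells, read 8.90, 10.45 and 10.26 (1.36). Kit, the receptor of stem cell factor, read 7.76, 8.56 and 8.93 (1.17, and 0.79 with the mean of its probe sets). Rhox5, an X-linked homeobox gene, went the other way with 9.54, 10.20 and 7.996 (-1.54), and Sycp3, of the meiotic chromosome axis, differed by -0.94. Of 15 genes, 4 were higher and 1 lower, and the median was 0.06.

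In FGF-ERK signalling, ligands and receptors read alike and several feedback genes were higher. The 7 ligands and receptors above the filter had a median of 0.00 and stayed between -0.09 and 0.33. Etv5, an ETS factor induced by FGF, read 7.997 (WT), 7.82 (MI) and 9.92 (RQ) (1.92), and its 3 probe sets agreed (1.90 to 2.04). Spred2, an inhibitor of RAF activation, differed by 2.16 and Spry2, a Sprouty inhibitor, by 1.16, but other probe sets of these genes differed less and their means were 0.55 and 0.70. Dusp6, the ERK phosphatase, read 6.46, 6.75 and 7.06, and Fos, the immediate-early AP-1 gene, read 7.70, 6.55 and 6.28 (-1.42). Of 22 genes, 3 were higher and 1 lower, with a median of 0.22.

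Other signalling lists had few members past 2-fold. In the Nodal and BMP list 2 of 26 were higher (median 0.07): Nodal, the TGF-beta family ligand of the epiblast, read 7.39 (WT), 7.74 (MI) and 8.54 (RQ) (1.15), and Tbx3 was counted here as a BMP target. Smad7, the feedback inhibitor of the family, differed by 0.84, and Id2, a BMP-induced inhibitor of helix-loop-helix factors, by -0.94. With the mean of its probe sets Id2 was at -0.56, and without shared ones at -0.04. In the Hippo-YAP list 4 of 16 were lower (median -0.19): Ccn2, a matricellular target of YAP, read 8.51, 6.76 and 6.08 (-2.43), Ccn1 read 7.71, 7.46 and 6.22 (-1.49), Amotl2, an angiomotin, read 8.74, 7.93 and 7.43 (-1.31), and F3, tissue factor, read 6.95, 5.95 and 5.77 (-1.18). Ccn1 was at -0.89 with the mean of its probe sets and at -0.24 without shared ones. Yap1 itself read 8.37 in WT and 8.64 in RQ. The Wnt list had Tle4, a Groucho corepressor, as its 1 higher gene of 12 (2.13, from 6.14 in WT to 8.27 in RQ) and a median of -0.02, the retinoic acid list had Stra8 as its 1 of 10 (median -0.05), and none of 11 Notch genes was past 2-fold (median -0.03).

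Cytoskeletal genes were lower by smaller amounts. Of 20 actin-binding and smooth muscle genes, 3 were 2-fold lower and none higher, 16 were below 0, and the median was -0.60. Cnn2, a calponin, read 9.32 (WT), 7.38 (MI) and 7.62 (RQ) (-1.70), Tpm4, a tropomyosin, read 10.37, 9.04 and 8.73 (-1.65), and Tagln, transgelin, read 8.01, 6.77 and 6.65 (-1.35). In the mesenchyme and fibroblast list Lgals1, which encodes galectin-1, read 9.96, 10.96 and 7.96 (-2.003) and was the 1 of 15 genes past 2-fold. Vim, vimentin, read 8.05, 10.88 and 7.75, and the list median was -0.06.

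Lists for other lineages were near the background of all genes. In streak and mesoderm genes 1 of 14 was higher, Tcf15, a helix-loop-helix factor (1.05), with a median of 0.00. In trophoblast genes 1 of 6 was higher, Tfap2c, which read 8.38 (WT), 8.71 (MI) and 9.49 (RQ) (1.10) and is also used by naive cells. In blood and endothelium genes Srgn was the 1 of 12 that was lower, and the median was -0.02. None of 10 neural and neural crest genes was past 2-fold, with a median of -0.03. Most members of these lists stood close to the level filter, so their levels were too low to read a lower value in RQ.

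Chromatin genes were on balance slightly higher. Tet1 and Tet2, which oxidise methylcytosine, read 9.01 and 6.97 in WT, 9.05 and 6.84 in MI, and 10.32 and 8.57 in RQ (1.31 and 1.602). Dnmt3l, the cofactor of de novo methylation, went the other way with 10.20, 7.52 and 8.55 (-1.66), and among the methyltransferases themselves Dnmt3b differed by -0.78, Dnmt3a by 0.75 and Dnmt1 by 0.80. Zfp57, which guards imprinted methylation, read 7.14, 7.33 and 8.01. Of 14 DNA methylation genes, 2 were higher and 1 lower, with a median of 0.37. Of 40 Polycomb and chromatin genes, 4 were higher and none lower, with a median of 0.28: Jarid2, a PRC2 cofactor, read 9.86, 9.69 and 11.06 (1.20), the acetyltransferase Ep300 read 7.00, 6.92 and 8.21 (1.21), the deacetylase Sirt1 read 7.45, 7.77 and 8.65 (1.20), and Mtf2, another PRC2 cofactor, differed by 1.495 (0.96 with the mean of its probe sets). The catalytic subunit Ezh2 read 9.45 in WT and 9.60 in RQ.

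DNA replication genes differed by small amounts that mostly lay above 0. Of 27 origin and fork proteins 23 were above 0 (median 0.38), as were all 7 nucleotide supply genes (median 0.46), against 51.7% of all genes. Mcm10, an origin-firing factor, read 7.71 (WT), 8.05 (MI) and 8.55 (RQ), Mcm7 of the replicative helicase read 10.89, 10.79 and 11.57, and Pcna, the sliding clamp, read 11.48, 11.32 and 11.99. Rrm1 and Rrm2, the subunits of ribonucleotide reductase, differed by 1.02 and 0.91, and with the mean of their probe sets by 0.30 and 1.10. In all, 1 of 51 genes, Rrm1, was past 2-fold at the chosen probe set (median 0.24). Cyclins, E2F factors and inhibitors in this list had a median of 0.01, with the CDK inhibitor Cdkn1b at 7.73, 6.46 and 6.85. Mitotic genes had a median of 0.12 and none of 25 past 2-fold, with the motor Kif11 at 0.74 and Cdk1 at 0.58.

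Repair genes, the pathway in which BRCA1 acts, showed no member of the homologous recombination list past 2-fold. This is near the shares over all genes, 1.68% higher and 1.49% lower. Of the 29 genes of that list, 22 were above 0, against 51.7% of all genes. Their median was 0.33, which was 0.17 without the level filter and 0.19 with the mean of probe sets. Brca2, a tumour suppressor of the same pathway, read 7.72 (WT), 8.25 (MI) and 8.55 (RQ) (0.83), Exo1, a resection nuclease, read 6.66, 7.17 and 7.53 (0.88), and Palb2, the bridge between BRCA1 and BRCA2, read 6.32, 6.56 and 7.00 (0.68). Trp53bp1, which opposes resection, read 7.84, 8.26 and 7.23 (-0.60) at a shared probe set. Its 6 probe sets ranged from -0.60 to 0.09, with -0.12 for their mean and -0.17 without shared ones. Among 19 other repair genes the mismatch protein gene Msh6 was the 1 past 2-fold (10.88, 11.08 and 11.93, a difference of 1.05), with a median of 0.25. In the p53 pathway none of 20 genes was past 2-fold (median 0.08), with the growth arrest gene Gadd45a at 7.55, 7.23 and 8.36 and the CDK inhibitor Cdkn1a at 8.50, 8.56 and 8.45.

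A list of literature targets of miR-155, a microRNA that BRCA1 has been linked to, was read as well. Its mature strand, from RefSeq (GRCm38.p6, chr16:84714143-84714165, plus strand), is shown with the seed, bases 2 to 8, in capitals, because targets are recognised through it.
mmu-miR-155-5p: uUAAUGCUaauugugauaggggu
The arrays gave no reading of this RNA, since its host gene Mir155hg stood below the filter on each array (5.36 in WT, 5.34 in MI, 5.29 in RQ). Of 24 targets above the filter, 2 were higher, Jarid2 and Msh6, and 2 were lower, Fos and Sdcbp, which encodes the adaptor syntenin (-1.05, and -0.42 with the mean of its probe sets). The median was 0.13, with 13 genes above 0 and 11 below, and it was 0.49 over the 21 genes with both arrays above the filter. That last setting removes Fos (-1.42), Cebpb (-0.61) and Smad5 (-0.21), which were under the filter in RQ alone, and so raises the median. Inpp5d, the phosphatase SHIP1, read 8.08, 8.04 and 8.72, and Cebpb, a leucine zipper factor, read 6.51, 6.52 and 5.91.

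Metabolic lists held genes in both directions. In glycolysis and hypoxia 4 of 31 genes were higher and 2 lower, with a median of -0.21: Pdk1, which holds back pyruvate oxidation, read 8.95 (WT), 8.29 (MI) and 10.25 (RQ) (1.30, and 0.76 with the mean of its probe sets), Egln3, an oxygen sensor, read 6.64, 6.63 and 7.92 (1.28), Hk2, a hexokinase, read 9.33, 9.56 and 10.41 (1.08), and Pfkp, a phosphofructokinase, differed by 1.05. P4ha1 and Aldoc, an aldolase, were lower (-1.52 and -1.22), and the unshared probe set of Aldoc was under the filter on each array, so it gives no reading. In cholesterol and fatty acid synthesis Elovl6, a fatty acid elongase, read 8.16, 8.24 and 9.73 (1.57), and Insig1, the sterol-responsive anchor of SREBP processing, read 9.75, 7.88 and 7.98 (-1.77), while 23 of the 30 genes were below 0 (median -0.20).

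Stress genes were also split. In the amino acid and ER stress list 2 of 39 were higher and 1 lower (median 0.07): Slc7a3, a cationic amino acid transporter, read 6.45 (WT), 6.21 (MI) and 7.93 (RQ) (1.48), Xbp1, a factor of the unfolded protein response, differed by 1.03, and Ddit3, which encodes CHOP, read 9.43, 8.83 and 8.06 (-1.37). Xbp1 was at 0.17 without shared probe sets. The amino acid response genes alone had a median of 0.48 and the ER chaperones -0.16. Among 14 heat shock genes, the mitochondrial chaperonin Hspd1 (1.09) and Dnaja1 (1.03) were higher and the inducible Hspa1a (-1.56) and Hspa1b (-1.10) lower, and since these latter are near-identical copies their probe sets can share signal. Of 16 oxidative stress and metal genes Gstm1, a glutathione transferase, was the 1 that was 2-fold lower (-1.14, and -0.74 with the mean of its probe sets). Nfe2l2, the master factor NRF2, read 8.36, 8.89 and 9.35 (0.99). Its other probe set went the other way (-0.55), and the mean of both was 0.22.

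Single genes stood out in the remaining lists. B2m, which encodes beta-2-microglobulin of MHC class I, read 9.70 (WT), 10.54 (MI) and 7.14 (RQ) (-2.56, with its other probe set at -2.16), and was the 1 of 16 interferon and MHC genes past 2-fold (median -0.03). The heavy chain gene H2-D1 read 6.86, 7.04 and 6.22 and the peptide loader Tapbp 7.81, 7.72 and 7.13. None of 11 NF-kB and inflammation genes was past 2-fold (median -0.06). Among 23 imprinted genes Meg3, a maternally expressed noncoding RNA, read 10.79, 9.32 and 8.52 (-2.26), and Gnas differed by -1.25, but by 0.28 without shared probe sets (1 probe set, 7.07 in WT and 7.35 in RQ), and the cause was not tested. The list median was -0.21. All 16 ribosomal protein genes were below 0 by -0.43 to -0.02 (median -0.23, which shrank to -0.08 with a lowess correction and -0.06 after renewed quantile normalization), and 19 mitochondrial respiration genes had a median of 0.02. Of 3 Y-linked or Xist genes above the filter, Eif2s3y, a Y-linked translation factor, read 8.56, 6.31 and 5.30 (-3.26). Uty, also on the Y chromosome, read 6.70, 7.00 and 6.76 and Xist 6.88, 7.10 and 6.97. Both stood close to the level filter on each array, WT included, where little of a lower value could be read.

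Several of the 30 lowest genes belonged to none of these lists. Spink1, a secreted trypsin inhibitor, read 8.66 (WT), 5.70 (MI) and 5.72 (RQ) (-2.94), Glul, glutamine synthetase, read 10.57, 7.98 and 7.76 (-2.81), and Fabp3, a fatty acid-binding protein, read 11.80, 10.89 and 9.38 (-2.42). Gpx3, a secreted glutathione peroxidase, read 9.19, 7.12 and 6.82 (-2.38), and Ip6k2, an inositol phosphate kinase, read 8.56, 6.35 and 6.15 (-2.41). The linker histone gene H1f2 (-2.61) and the core histone gene H2aw (-2.33) were read at shared probe sets, and their unshared ones were under the filter in WT and RQ and give no reading. Rpl12, a ribosomal protein gene outside the list, read 10.83, 9.15 and 8.26 (-2.56, 1 probe set).

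The 30 highest genes outside these lists were of varied function. Klf9, a Krüppel-like factor induced by hormones, read 8.48 (WT), 8.96 (MI) and 10.62 (RQ) (2.14), Pml, the scaffold of nuclear bodies, read 6.93, 7.03 and 8.78 (1.85), and Tgif1, a homeodomain repressor of TGF-beta signalling, read 7.70, 8.03 and 9.37 (1.67). Snhg3, a small nucleolar RNA host gene, read 7.45, 7.59 and 9.34 (1.89), Usp9x, a deubiquitinase, read 7.88, 7.81 and 9.51 (1.63), and Jade1, a subunit of a histone acetyltransferase complex, read 7.91, 8.56 and 9.59 (1.69), with all 4 of its probe sets past 2-fold. Lrr1, an adaptor of a ubiquitin ligase at replication forks, read 6.02, 6.14 and 7.97 (1.95), and Mgat2, an N-glycan transferase, read 6.70, 7.12 and 8.34 (1.65). Zmym1 (1.99), Fam169a (1.80), Ubxn2a (1.77), Ints5 (1.88), Zfp518b (1.80), Pole2 (1.71), Cbfa2t2 (1.62), Oxr1 (1.605) and Twistnb (1.603) completed the group. Without shared probe sets Ints5 was at 0.41, while the unshared probe set of Oxr1 (0.05) was under the filter on each array and gives no reading.

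Support from several probe sets differed between the directions. Of the 205 higher genes, 124 had several probe sets above the filter, and in 13 of these all were past 2-fold. In 97 all differed in the same direction, and in 27 at least 1 differed the other way. Of the 182 lower genes, 99 had several, 30 of them with all past 2-fold, 85 with all in the same direction and 14 with 1 the other way. With probe sets averaged by gene 111 of the 205 and 55 of the 182 genes were short of 2-fold. Among the 30 highest, Cbfa2t2, Ints5, Oxr1, Pole2, Tbx3, Twistnb and Zfp518b were short of 2-fold with that mean, and among the 30 lowest none was. In each of these groups 12 genes had 1 probe set, so their mean could not differ from the chosen value. All these means and counts take in probe sets under the filter, which give no reading. For example, the other probe set of Pole2 read 5.61 in WT and 5.77 in RQ, and that of Zfp518b 5.47 and 5.59. The 30 highest and the 30 lowest were also picked for probe sets above the filter that shared 1 direction. Reliance on shared probe sets was greater on the lower side, where they were read for 37.9% of genes, against 22.4% of higher genes and 23.6% of all. Without shared probe sets 191 genes were higher and 151 lower, and 2 of the 30 highest and 3 of the 30 lowest were no longer past 2-fold. A further 2 of the highest (Zmym1 and Tgif1) and 5 of the lowest (Apoe, B2m, Glul, Krt8 and Serpinh1) had only shared probe sets. These genes have no reading in that setting. Probe sets of 1 gene read the same labelled RNA and are not replicates.

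**Figure D4:**
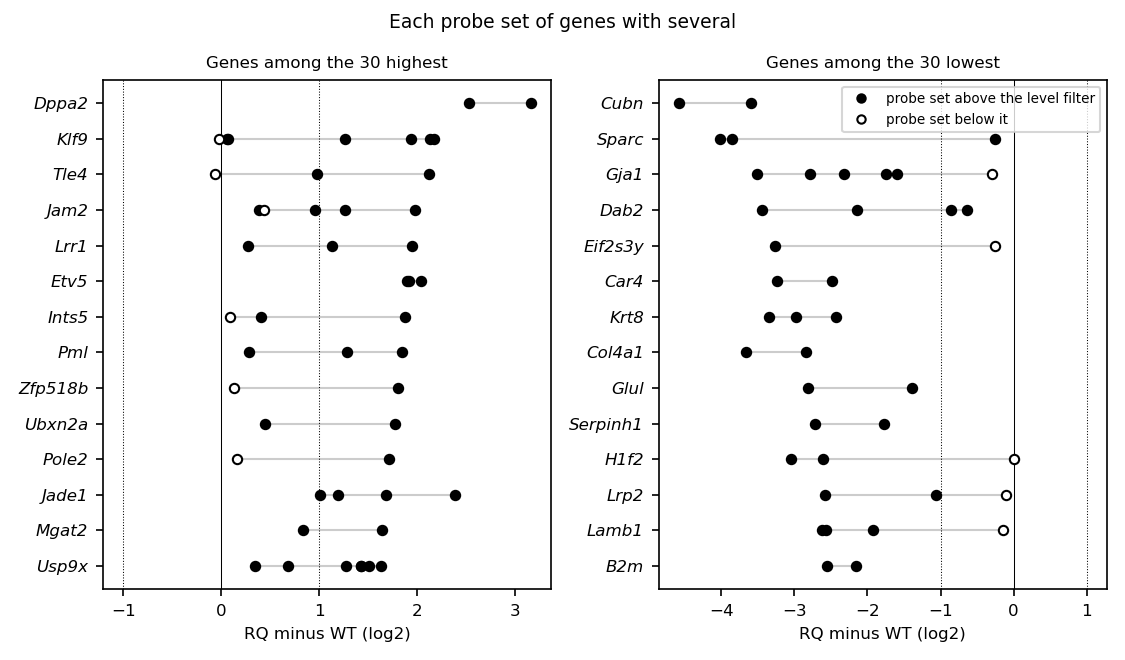
RQ minus WT (log2) is plotted for every probe set of the first 14 genes with several probe sets among the 30 highest (left) and the 30 lowest (right), filled where the probe set was above the level filter and open where it was not, with dotted lines at 2-fold. All probe sets of Dppa2, Etv5 and Jade1 on the left and of Cubn, Car4, Krt8, Col4a1, Glul, Serpinh1 and B2m on the right lie past 2-fold.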

How the data were processed

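Messenger RNA was read on 1 array per genotype. The values are the log2 signals deposited by the authors, 45101 probe sets per array. RMA and Partek are named in the submitters' processing notes. Their versions, the order of steps and the genome build are not given in the sources used here. RMA corrects background, makes arrays alike and summarises probes. No scanner files or detection calls were used here, so no batch could be examined and no gene called absent.

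The supplied platform annotation gave 34958 probe sets 1 gene symbol, 932 several and 9211 none. After 64 control probe sets were set aside, 34945 probe sets of 18193 genes (9010 with several) were used. Entrez identifiers of 34754 matched RefSeq (GRCm38.p6) and changed 0 symbols. A level filter at the median of all probe sets (6.31) and a 2-fold limit were applied with Python 3.11.15, pandas 2.3.3 and statsmodels 0.14.6. Counting was tested on simulated data. The 43 gene lists (957 genes on the arrays) and the genes described were chosen with earlier results of these data known. Named genes are the 30 highest and 30 lowest whose probe sets above the filter shared 1 direction, list members past 2-fold or among the 4 largest differences of a list, and Brca1 and Mir155hg. Other names were chosen after their values were seen, mostly as partners of those genes.

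Alternatives were array centring, renewed quantile normalization, a lowess correction (span 0.3, 3 iterations), no filter, a filter at the 75th percentile (6.92), both arrays above the filter, the mean of probe sets, leaving out shared probe sets (named as matching several transcripts), keeping genes with probe sets in 1 direction, and limits of 1.5-fold and 3-fold. The naive list without Manba and Jam2 was added after seeing the data.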

Additional observations from a re-analysis of the deposited data

How the results depend on the processing

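No paired analysis was possible because each genotype had 1 array. Values were held to have moved when they differed from those reported by more than 0.22, the median difference between probe sets of 1 gene (11503 pairs), and counts when they differed by more than 1.5 times. The 205 higher genes became 102 with the mean of probe sets, 844 at 1.5-fold and 34 at 3-fold, and the 182 lower genes became 531 at 1.5-fold and 75 at 3-fold. Under the other alternatives the counts were 157 to 210 higher and 131 to 185 lower. The endocytic receptor median of -1.59 was -1.02 without the level filter, -0.24 with both arrays above it (5 genes), -1.18 with the mean of probe sets and -1.11 without shared probe sets. The basement membrane median of -0.89 was -0.41 without the filter and -0.57 with the mean of probe sets. The simple epithelium median of -0.10 was -0.43 with the filter at the 75th percentile, and the lysosome median of -0.71 was -0.48 without shared probe sets. Gnas was at 0.28 in that last setting instead of -1.25, from 1 probe set. The medians of collagen folding, naive pluripotency, actin and G1/S genes stayed within the tolerance under all alternatives run. Among the other list medians 267 values stayed and 13 moved, and among single genes 1522 stayed, 115 moved and 1, Gnas, reversed. Apart from the altered membership of each list under a filter, the cause was not tested. Signals near the filter limit what could be read as lower in RQ.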

Other observations

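Gene groups chosen after their values were seen gave further readings of RQ against WT. Of 34 subunits of the 26S proteasome, which degrades ubiquitinated proteins, 29 were above 0 in RQ, 2 were past 2-fold and none lower, with a median of 0.39 where the MI array gave -0.03. Psmd12, a lid subunit, read 8.70 (WT), 9.80 (MI) and 9.92 (RQ), and Psmd7, another lid subunit, read 7.42, 7.93 and 8.64, although its probe sets ranged from -0.41 to 1.22. Of 23 immediate-early and AP-1 genes above the level filter 7 were 2-fold lower and none higher (median -0.52, against -0.54 in MI). Among them Junb read 7.29, 6.72 and 6.08 in WT, MI and RQ, Jund read 10.49, 9.47 and 9.39, and the stress genes Gadd45b and Gadd45g read 10.12 and 7.95 in WT and 8.30 and 5.81 in RQ. Egr1, of the same class, read 6.57 in WT and 6.82 in RQ. Of 14 S100 proteins and annexins, which bind calcium, 5 were 2-fold lower (median -0.45, against 0.13 in MI), with Anxa2 at 10.48, 10.16 and 9.23 and S100a10, its partner, at 8.48, 9.07 and 7.39.

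Noncoding RNAs were in both directions, with 5 of 21 lower, 2 higher and a median of -0.66, against -0.67 in MI. Malat1, an abundant nuclear RNA, read 10.86 (WT), 9.35 (MI) and 9.36 (RQ), with its 7 probe sets between -2.84 and -0.37, and Neat1, the scaffold of paraspeckles, read 9.12, 8.76 and 7.75, with its other probe set at 0.08. Tug1 read 7.21, 7.01 and 8.42. Of 16 subunits of the vacuolar proton pump, which acidifies lysosomes, 3 were lower and the median was -0.23, against -0.61 in MI. Among them Atp6v0b read 9.83, 8.36 and 8.50. A second Y-linked gene, Uba1y, which encodes a ubiquitin-activating enzyme, read 7.76, 6.43 and 5.59 (-2.17, with its other probe set at -0.94). Of 10092 probe sets without a single gene symbol, 4021 were above the filter, 43 (1.07%) were 2-fold higher and 69 (1.72%) lower, between -2.87 and 2.33.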
